A study of Mus musculus with 12 samples.

Results

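The genes described here are 480 abundant Gm-numbered genes in RNA from sorted mouse neutrophils, together with the protein-coding genes that lie opposite them on the other DNA strand. They were selected on their level: of the 48709 genes in the count table, 21748 carry a symbol made of Gm and a number, 2261 of these passed the filter on low counts (12488 genes of all names did), and the members are those with a mean of at least 50 CPM over the 12 libraries. Levels are given in CPM, a library's counts on a gene relative to all its counts on genes, after TMM scaling, which sets effective library sizes by a trimmed mean of log ratios between libraries. A further 7 genes over that level were left out by name in the selection. Because the mean level chose the members, their abundance is a description, with no test. The last genes inside the limit were Gm37256 at 50.04 CPM, Gm17484 at 50.2 and Gm2895 at 50.3, and the first outside it were Gm26850 at 49.8, Gm20636 at 49.3 and Gm16028 at 48.9.

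Neutrophils of male C57BL/6N mice aged 8 to 10 weeks were sorted as Ly6Ghi Ly6Cint CD11b+ CD45+ cells (over 95% pure by the methods of the study). They came from the spleen of untreated mice (3 libraries) and from the liver at 24 h (4 libraries) and at 72 h (5 libraries) after 1 intraperitoneal injection of carbon tetrachloride (CCl4), a hepatotoxin, at 1 mL/kg in corn oil. The study used splenic cells as controls, so organ and injury change together in each comparison with the spleen and cannot be told apart, and the same 3 spleen libraries serve both comparisons. The labels number the libraries without naming animals, so p-values measure the spread between these libraries. Counts on genes ran from 1267089 to 3017403 per library, and 96.79% to 97.27% of the uniquely aligned reads lay on no gene. Unaligned reads were 1.91% and 1.98% in 72 h replicates 2 and 3 and 49.6% to 50.7% elsewhere. All 12 neutrophil markers looked up, such as S100a8 and Csf3r, passed the filter. Their summed level was 2412 to 9731 CPM in the spleen, 1062 to 2742 at 24 h and 2670 to 3416 at 72 h. Against the spleen, 3 of them were called lower at 24 h, and 5 lower and 1 higher at 72 h. Markers of immature neutrophils, such as Ltf and Camp, summed to 2994 to 5514 CPM in the spleen, 687 to 946 at 24 h and 1005 to 1732 at 72 h, with Elane at 0 in every library. Of the 6 that passed the filter, 4 were called lower than the spleen at 24 h and 4 at 72 h. Hepatocyte markers summed to 2.87 to 7.12 CPM in the spleen and 11.8 to 17.0 at 24 h and 3.35 to 30.2 at 72 h, 1 of them was called higher at 24 h, and Ttr, Apoc3 and Cyp3a11 were at 0. Macrophage and monocyte markers summed to 108 to 180 CPM in the spleen, 110 to 162 at 24 h and 138 to 199 at 72 h, with C1qa and Clec4f at 0. Endothelial markers, of which 6 of 8 passed the filter, summed to 37.8 to 86.2, 26.8 to 51.2 and 46.2 to 76.2 CPM, with Cdh5 and Kdr at 0, and B cell markers to 63.1 to 74.999, 23.6 to 54.1 and 31.6 to 60.8 CPM, with none at 0. The T cell and erythroid lists reached at most 6.05 and 7.10 CPM in any library, with Cd3e, Cd4, Cd2, Hba-a1, Hbb-bs and Slc4a1 at 0. The strand setting used in counting is not stated in the sources used here. A low count or a 0 of a marker therefore does not show that its RNA was absent, and these sums do not measure purity. The part of cell composition in the results below was not tested, and in bulk RNA fewer cells of a type and less RNA per cell cannot be told apart.

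A Gm number is a placeholder symbol that mouse gene nomenclature gives to predicted gene models with no established name. Many such models are long non-coding RNAs, and a large class is annotated as antisense because its exons run across a protein-coding gene on the opposite strand. Antisense transcripts are known in other systems to affect the gene they cross through its chromatin, its transcription or the duplex the RNAs can form. A sequencing library that keeps strand allows the members of such a pair to be counted apart, provided the counter is told which strand the reads represent. The labels name a stranded kit. The strand option given to the counter is not stated in the sources used here. Of the uniquely aligned reads 96.79% to 97.27% lay on no gene, and 409 of 414 members lay above their coding gene per kb of exon. Which strand of a locus the counted RNA came from was not tested. A level below is therefore the count assigned to a gene, and it does not show that RNA of that gene's own strand was abundant or scarce.

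The sequences of a few members show what such an overlap is. The ones below are exon sequence from GENCODE M21 (GRCm38), read 5′ to 3′ on the member's own strand, with capitals for bases that are coding sequence of the opposite-strand gene on its complement. The first 5 are members of the miRNA biotype, printed whole because their short annotated exon lies largely or wholly inside a coding exon. The other 4 are stretches of 150 bases from members with some of the largest differences between groups, placed over an edge of the shared coding sequence. Gm44364 (chr6:136808543-136808683, minus strand) and Gm44335 (chr9:44334965-44335105, minus strand) lie opposite H2afj and H2afx, which encode histone H2A variants, and all of their 141 bases are coding on the other strand. These sequences differ at 8 of 141 positions (94.3% identity), so reads could be split between them. Gm28033 (chr17:35868302-35868397, minus strand) lies opposite Ppp1r18, Gm24157 (chr11:52099043-52099153, minus strand) opposite Ppp2ca, the catalytic subunit of protein phosphatase 2A, and Gm22953 (chr2:121450670-121450770, minus strand) opposite Serf2.
Gm44364: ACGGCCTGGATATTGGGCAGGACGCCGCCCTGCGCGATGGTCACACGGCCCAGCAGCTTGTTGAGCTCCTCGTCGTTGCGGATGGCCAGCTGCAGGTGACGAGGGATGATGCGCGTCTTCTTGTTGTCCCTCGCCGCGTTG
Gm44335: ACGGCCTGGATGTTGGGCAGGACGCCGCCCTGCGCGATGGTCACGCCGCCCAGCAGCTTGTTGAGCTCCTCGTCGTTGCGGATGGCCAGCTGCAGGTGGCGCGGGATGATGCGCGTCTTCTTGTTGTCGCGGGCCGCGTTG
Gm28033: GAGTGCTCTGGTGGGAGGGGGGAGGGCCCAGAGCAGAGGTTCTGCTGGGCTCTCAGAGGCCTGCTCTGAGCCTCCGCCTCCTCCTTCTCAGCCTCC
Gm24157: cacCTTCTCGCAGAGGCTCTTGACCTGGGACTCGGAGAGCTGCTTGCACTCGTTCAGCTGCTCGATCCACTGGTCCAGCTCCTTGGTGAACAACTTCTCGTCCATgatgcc
Gm22953: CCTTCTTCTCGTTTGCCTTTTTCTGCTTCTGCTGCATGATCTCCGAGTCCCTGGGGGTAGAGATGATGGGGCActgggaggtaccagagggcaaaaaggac
The longer members are shown at chr17:29491625-29491774 (Gm26885, minus strand, opposite the kinase gene Pim1), chr16:26714661-26714810 (Gm20319, minus strand, opposite Il1rap), chr10:127665029-127665178 (Gm16229, plus strand, opposite Nab2) and chr2:60338214-60338363 (Gm13571, plus strand, opposite Ly75). In these windows 110, 110, 110 and 69 of the 150 bases are coding sequence of the opposite gene, and the rest lie outside its exons.
Gm26885: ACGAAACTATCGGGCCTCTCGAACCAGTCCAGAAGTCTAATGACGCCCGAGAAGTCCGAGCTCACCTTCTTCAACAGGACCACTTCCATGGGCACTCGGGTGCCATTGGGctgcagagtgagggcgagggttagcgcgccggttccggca
Gm20319: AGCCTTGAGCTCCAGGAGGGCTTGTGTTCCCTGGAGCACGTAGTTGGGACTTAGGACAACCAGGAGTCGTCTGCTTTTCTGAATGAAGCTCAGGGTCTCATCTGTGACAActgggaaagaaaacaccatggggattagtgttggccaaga
Gm16229: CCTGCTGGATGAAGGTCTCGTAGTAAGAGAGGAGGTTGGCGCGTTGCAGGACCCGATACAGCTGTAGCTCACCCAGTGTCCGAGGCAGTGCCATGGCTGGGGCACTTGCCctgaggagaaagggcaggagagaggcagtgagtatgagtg
Gm13571: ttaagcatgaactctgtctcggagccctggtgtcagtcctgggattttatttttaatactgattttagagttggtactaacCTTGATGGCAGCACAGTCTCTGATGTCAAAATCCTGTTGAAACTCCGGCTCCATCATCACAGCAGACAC

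Exon overlap with a coding gene was common among the members, and the selection did not use it directly. The antisense class, with 258 of the members, is annotated for such overlap, so part of the share follows from the annotation. Whether the unstated strand option of the counter bears on the overlap of genes over the level was not tested. Of the 480 members, 424 (88.3%) shared exon bases with a protein-coding gene on the opposite strand. The share was 29.6% of the 1774 Gm-numbered genes tested below the level, 53.1% of the 1504 other genes at or over it and 28.1% of all genes tested. A further 23 members lay inside the body of an opposite-strand coding gene without sharing an exon, 9 lay within 5 kb of one, and 24 had none. Any opposite-strand gene, coding or not, shared exon bases with 440 members (91.7%). The shared stretch ran from 3 to 4168 bases with a median of 365.5, and it took 17.8% to 70.4% of the member's exon bases between the lower and upper quartiles of the members that shared any. In 335 pairs it included coding sequence, in 89 only untranslated exon bases, and the exons of 56 members lay wholly in exons of the coding gene. 41 members shared exon bases with more than 1 coding gene, and the one with the most shared bases was then taken. 13 members shared exon bases with a gene on their own strand and are uncertain for that reason: Gm12992, Gm16033, Gm13568, Gm16034, Gm37939, Gm49339, Gm6649, Gm12940, Gm16008, Gm14321, Gm43106, Gm28306 and Gm13625.

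**Figure D1:**
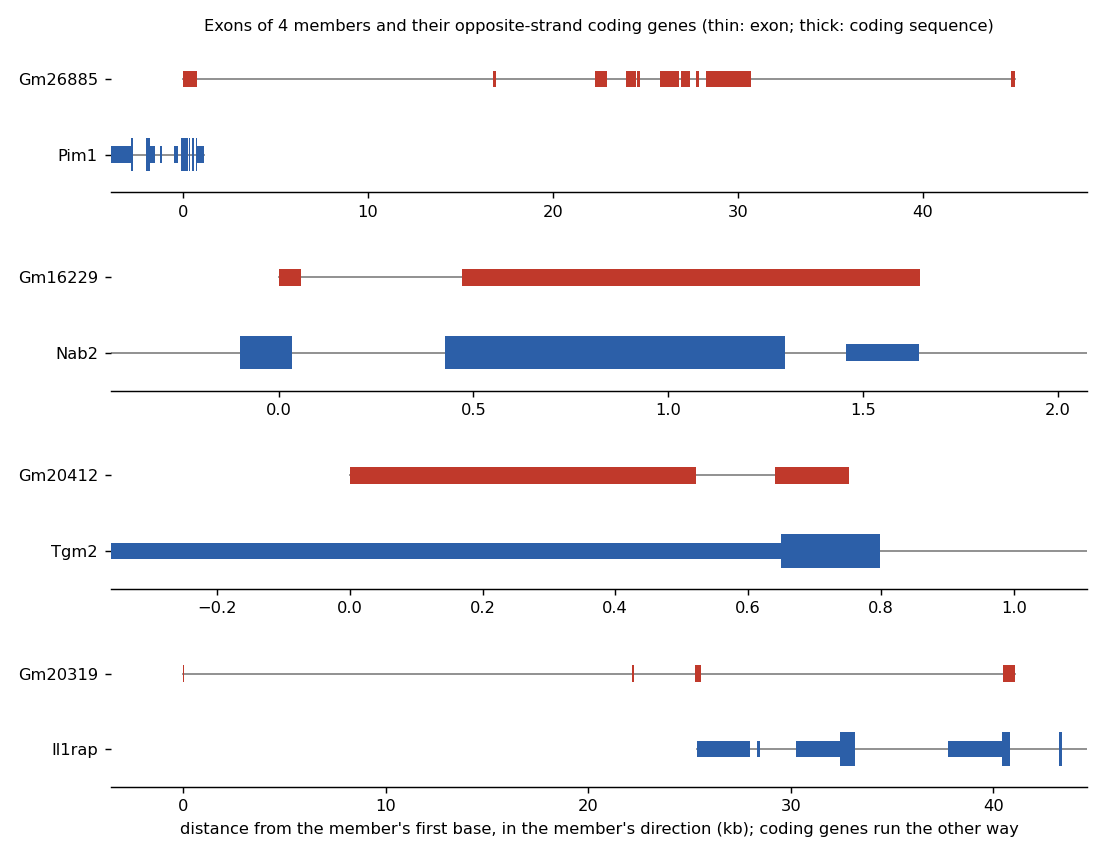
Exons (thin bars) and coding sequence (thick bars) of 4 members in red and their opposite-strand coding genes in blue, against the distance in kb from the member's first base in the member's direction; each panel has its own scale. Gm16229 and Gm20412 lie over exons of Nab2 and Tgm2 for most of their length, whereas Gm26885 shares 488 of its 6618 exon bases with Pim1, at its first exon.

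By biotype, the annotation's class of gene, 258 members were antisense, 67 lincRNA (intergenic long non-coding RNA), 58 TEC (a provisional class for loci that await experimental evidence), 31 processed transcripts, 24 protein-coding, 11 processed pseudogenes, 10 miRNA, 7 bidirectional promoter lncRNA, 5 pseudogenes, 3 unprocessed pseudogenes and 2 transcribed unprocessed pseudogenes. There was 1 member each of macro lncRNA, snRNA, sense intronic and misc RNA. Levels ran from 50.04 to 10154 CPM with a median of 178. The mean was at least 100 CPM in 345 members, at least 500 in 113 and at least 1000 in 61. In 417 members the mean reached 50 CPM in each of the 3 groups, in 48 in 2 groups and in 15 in 1 group. Those 15 were above the level only through the group where they are high: 10 at 24 h (Gm13748, Gm44981, Gm20406, Gm17106, Gm17529, Gm42934, Gm37415, Gm44140, Gm36992 and Gm20481), 4 in the spleen (Gm16042, Gm14508, Gm2895 and Gm37256) and 1 at 72 h (Gm10575). The 48 reached it through 2 groups, so a difference from their low group was also favoured by the selection. Among those named below, Gm16229, Gm43182, Gm12867, Gm14321, Gm28913, Gm28914, Gm45752 and Gm14023 were under the level in the spleen. Gm13571 and Gm42722 were under it at 72 h.

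The members together took 23.5% to 25.03% of the counts in the spleen libraries, 26.4% to 28.6% at 24 h and 23.9% to 25.2% at 72 h, so the 24 h libraries lay above all others. On the TMM scale their summed level was 202563 ± 6287 CPM (SD, n = 3) in the spleen, 344256 ± 22263 (SD, n = 4) at 24 h and 229051 ± 13453 (SD, n = 5) at 72 h. These sums depend on the scaling. TMM factors lay between 1.17 and 1.24 in the spleen, between 0.74 and 0.86 at 24 h and between 1.03 and 1.14 at 72 h, and without them the sums were 243376, 273067 and 246409 CPM. Antisense members held 101865 ± 3507 CPM (SD, n = 3) of the spleen sum, 183529 ± 16200 (SD, n = 4) of the 24 h sum and 117376 ± 6981 (SD, n = 5) of the 72 h sum. The lincRNA members summed to 45078 ± 6067 CPM (SD, n = 3) in the spleen, 65703 ± 3889 (SD, n = 4) at 24 h and 45030 ± 2987 (SD, n = 5) at 72 h. Processed transcripts summed to 11145 ± 1246 CPM (SD, n = 3) in the spleen, 25443 ± 5122 (SD, n = 4) at 24 h and 20121 ± 5225 (SD, n = 5) at 72 h, so their 72 h sum lay nearer to the 24 h sum than to the spleen sum.

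The coding genes opposite the members were counted at far lower levels. The 424 overlaps involve 406 coding genes, of which 396 were tested, in 414 pairs. Per kb of exon, the median level was 193 CPM in the members and 2.86 CPM in the coding genes opposite them, against 1.42 CPM in other tested coding genes. The member lay above its coding gene per exon kb in 409 of 414 pairs, with a median ratio of 93.5 (quartiles 29.4 and 248). Across the 414 pairs, log2 level of member and coding gene correlated at Pearson r = 0.43 (Spearman rho = 0.42). Log2 level correlated with the log2 number of shared bases at r = 0.18 and with the member's own exon length at r = 0.02. These are descriptions across genes that share libraries and scaling, not across replicates.

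**Figure D2:**
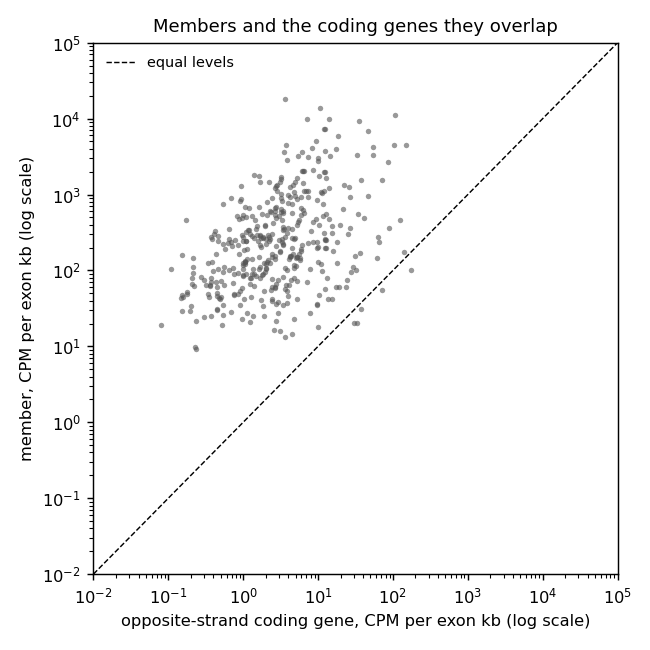
Mean level per kb of exon over the 12 libraries, in CPM on log axes, of each member (vertical) and its opposite-strand coding gene (horizontal), 1 point a pair; the dashed line marks equal levels. Of 414 pairs, 409 lie above the line.

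The most abundant members are described first. Gm17275 (chr1:180802568-180809483, plus strand), a lincRNA opposite H3f3a, which encodes histone H3.3, had the highest mean, 10154 CPM. Its TMM CPM was 13793, 15683 and 4953 in the spleen libraries, 12534, 12926, 12685 and 10739 at 24 h and 7793, 7865, 7289, 6505 and 9083 at 72 h. Spleen replicate 3 was the lowest of all 12 libraries, the groups overlapped in both comparisons with the spleen, and no comparison was called. Next came Gm26885 at 10149 CPM, described with the changed members below, and Gm26541, opposite Mob3a, at 8031. Gm26541 was measured at 6245, 6220 and 7219 TMM CPM in the spleen, at 9672, 8217, 11003 and 11131 at 24 h and at 7528, 7343, 6885, 6680 and 8225 at 72 h. The 24 h libraries lay above the spleen and overlapped the 72 h libraries, with a log2 fold change over the spleen of 0.61 (SE 0.18, edgeR adjusted p = 0.0338). Gm26541 lost its call at 24 h without any one of spleen replicates 1 and 2 and 24 h replicates 1, 3 and 4 (edgeR adjusted p up to 0.135), without the filter, with the replicate block and without normalization factors.

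Gm20721 (chr2:174330319-174346712, minus strand) is annotated as protein-coding and shares 1142 coding bases with Gnas, the stimulatory G protein alpha subunit. The spleen libraries gave Gm20721 4780, 4948 and 4058 TMM CPM, the 24 h libraries 9330, 7214, 6679 and 6427 and the 72 h libraries 3768, 3959, 3754, 4252 and 5098. The 24 h libraries did not overlap either other group, and the log2 fold change was 0.69 (SE 0.19, edgeR adjusted p = 0.0258) against the spleen and -0.83 (SE 0.17, edgeR adjusted p = 0.00745) from 24 h to 72 h. Gnas itself was at 48.2, 52.9 and 21.9 CPM in the spleen, 52.3, 45.6, 40.3 and 29.9 at 24 h and 34.7, 33.2, 40.2, 29.2 and 40.9 at 72 h, and it was called in no comparison. Gm37376 is a TEC locus of 453 exon bases that lies wholly opposite Malat1, an abundant nuclear long non-coding RNA, and has no coding partner. For Gm37376, TMM CPM was 1801, 2279 and 5033 (spleen), 6316, 11382, 7074 and 6703 (24 h) and 3807, 4811, 3886, 4343 and 3844 (72 h). It was higher at 24 h than in the spleen, with a log2 fold change of 1.37 (SE 0.29, edgeR adjusted p = 0.0035), and lower at 72 h than at 24 h, with -0.93 (SE 0.24, edgeR adjusted p = 0.0308). Its highest value was 24 h replicate 2, and in the spleen replicate 3 exceeded the other replicates. Gm20721 lost its call at 24 h without any one of spleen replicates 1, 2 and 3 and 24 h replicate 1 (edgeR adjusted p up to 0.083) and without normalization factors. Gm20721 lost its call between the liver times without normalization factors. Gm37376 lost its call between the liver times without any one of 24 h replicates 1 and 2 and 72 h replicates 1 and 3 (edgeR adjusted p up to 0.134), without 72 h replicates 2 and 3 together and without normalization factors.

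Gm20531, also among the 12 most abundant members, lies opposite Ptpn6, which encodes the phosphatase SHP-1, a brake on receptor signalling in myeloid cells. Gm20531 was measured at 2676, 2922 and 2963 TMM CPM in the spleen, at 6665, 5018, 6472 and 6490 at 24 h and at 4923, 4749, 3733, 3242 and 4009 at 72 h. All 24 h libraries lay above the other groups, with a log2 fold change over the spleen of 1.11 (SE 0.20, edgeR adjusted p = 0.0009). Ptpn6 was at 164, 149 and 139 CPM in the spleen, 119, 121, 69.3 and 96.3 at 24 h and 251, 215, 209, 138 and 149 at 72 h, and was higher at 72 h than at 24 h by a log2 of 0.93 (SE 0.23, edgeR adjusted p = 0.0248). Gm20511, opposite the formin gene Fmnl1, had log2 fold changes of 1.07 (SE 0.19, edgeR adjusted p = 0.000773) against the spleen and -0.69 (SE 0.16, edgeR adjusted p = 0.0157) from 24 h to 72 h. Gm20528, a processed transcript across the Ugt1a cluster of glucuronosyltransferases that shares exons with 9 coding genes, was at 2144 ± 158 (SD, n = 3) CPM in the spleen, 5218 ± 1608 (SD, n = 4) at 24 h and 4824 ± 1431 (SD, n = 5) at 72 h, and was called higher at both times. Gm16214, opposite the sorting receptor gene Sorl1, and Gm26762, opposite Gpi1 of glycolysis, were called only between the liver times, with log2 fold changes of -0.92 (SE 0.19, edgeR adjusted p = 0.00937) and -0.97 (SE 0.21, edgeR adjusted p = 0.013). Gm26602, a protein-coding model opposite R3hdm4, fell from 5930 ± 2026 (SD, n = 4) CPM at 24 h to 2373 ± 1490 (SD, n = 5) at 72 h with overlapping groups, a log2 fold change of -1.32 (SE 0.34, edgeR adjusted p = 0.0269). Gm20528 lost its call at 24 h without normalization factors. Gm20528 lost its call at 72 h without 72 h replicates 2 and 3 together. Ptpn6 lost its call between the liver times without any one of 24 h replicates 1, 3 and 4 and 72 h replicates 1, 2 and 3 (edgeR adjusted p up to 0.0745) and without 72 h replicates 2 and 3 together. Gm20511 lost its call at 24 h without normalization factors. Gm20511 lost its call between the liver times without 24 h replicate 1 (edgeR adjusted p up to 0.0645) and without normalization factors. Gm16214 lost its call between the liver times without 24 h replicate 1 (edgeR adjusted p up to 0.0571), without 72 h replicates 2 and 3 together and without normalization factors. Gm26762 lost its call between the liver times without 24 h replicate 1 (edgeR adjusted p up to 0.0704) and without normalization factors. Gm26602 lost its call between the liver times without any one of 24 h replicates 1 and 2 and 72 h replicates 1, 2 and 3 (edgeR adjusted p up to 0.105), without 72 h replicates 2 and 3 together and without normalization factors.

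**Figure D3:**
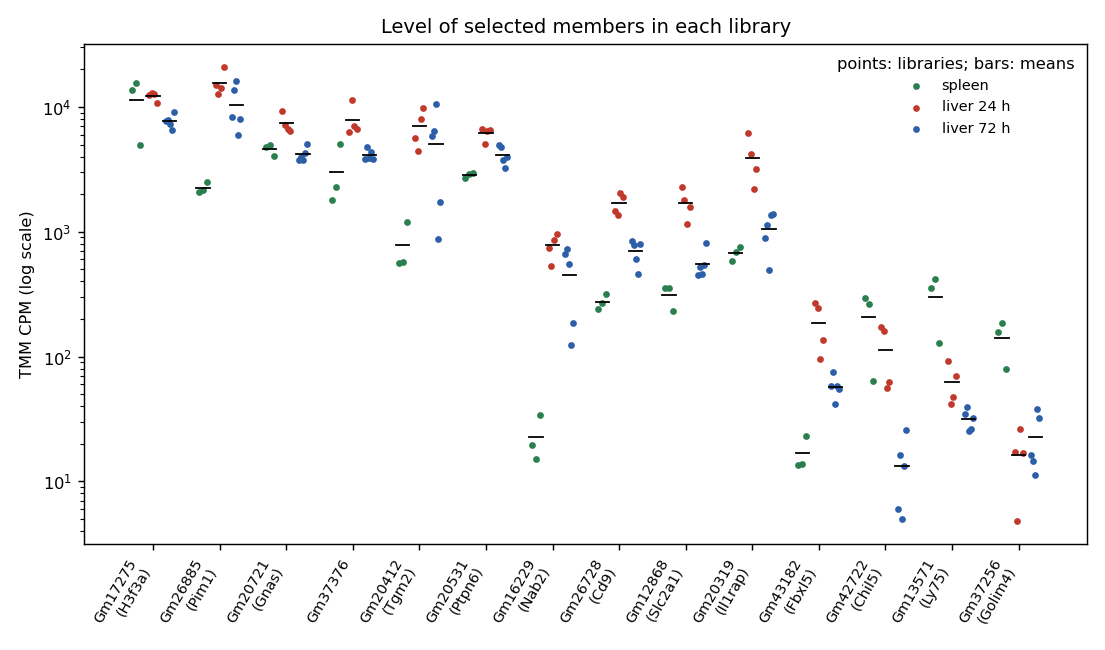
TMM CPM on a log axis of 14 members named in the text, with the opposite-strand coding gene in brackets; each point is a library (spleen n = 3, liver 24 h n = 4, liver 72 h n = 5) and black bars are group means. Gm26885, Gm16229 and Gm20412 are high at both times, and Gm26728, Gm12868, Gm20319 and Gm43182 peak at 24 h. Gm13571 and Gm37256 are lower in the liver than in the spleen, whereas Gm42722 is lowest at 72 h and overlaps the spleen at 24 h. Gm37256 reached the level of 50 CPM only through the spleen, and the selection also favoured the directions of Gm16229, Gm43182, Gm13571 and Gm42722.

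With TMM scaling 141 members were higher at 24 h than in the spleen and 11 were lower, a balance that became 55 higher and 66 lower without normalization factors. In the comparison of liver at 24 h with the spleen, 152 of 480 members were called (31.7%), meaning that the edgeR adjusted p was under 0.05 and the log2 fold change was 0.5 or more in size. Over all 12488 genes tested 9.75% were called, 5.35% higher and 4.4% lower, and among the 1504 other genes at or over 50 CPM 21.5% were called. The median log2 fold change was 0.48 over the members, -0.23 over all genes and -0.29 over the 396 coding genes on the other strand. Among the 417 members that reached the level in each group, 124 were called (118 higher and 6 lower). Without normalization factors 121 members were called, and the medians moved to -0.12 for the members and -0.81 for all genes. The members' median lay above that of all genes by 0.69 to 0.71 on the log2 scale under each of the 5 scalings. Leaving out spleen replicate 1 lowered the count to 85 and leaving out spleen replicate 2 lowered it to 97.

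By biotype, 81 of 258 antisense members were higher and 5 lower at 24 h, 18 and 2 of 67 lincRNA, 11 and 2 of 58 TEC, and 12 and 0 of 31 processed transcripts. Of the 24 protein-coding members 6 were higher and 1 lower, of the 11 processed pseudogenes 4 and 1, and of the 10 miRNA members 4 were higher. Tested genes of the same biotype that are not members were called in these shares: 14.6% of antisense genes against 33.3% of antisense members, 9.34% of lincRNA against 29.9%, and 10.7% of TEC against 22.4%. The shares were 11.6% against 38.7% for processed transcripts and 8.38% against 29.2% for protein-coding genes. They were 7.58% against 45.5% for processed pseudogenes and 8.82% against 40% for miRNA. These differences between shares were not tested, and the sets were not matched for level. At 24 h 21.5% of the other genes at or over 50 CPM were called, and 8.46% of the Gm-numbered genes below it. Members with an opposite-strand exon were called in 31.6% of 440 cases and those with none in 32.5% of 40, with median log2 fold changes of 0.49 and 0.27; the difference was not tested.

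**Figure D4:**
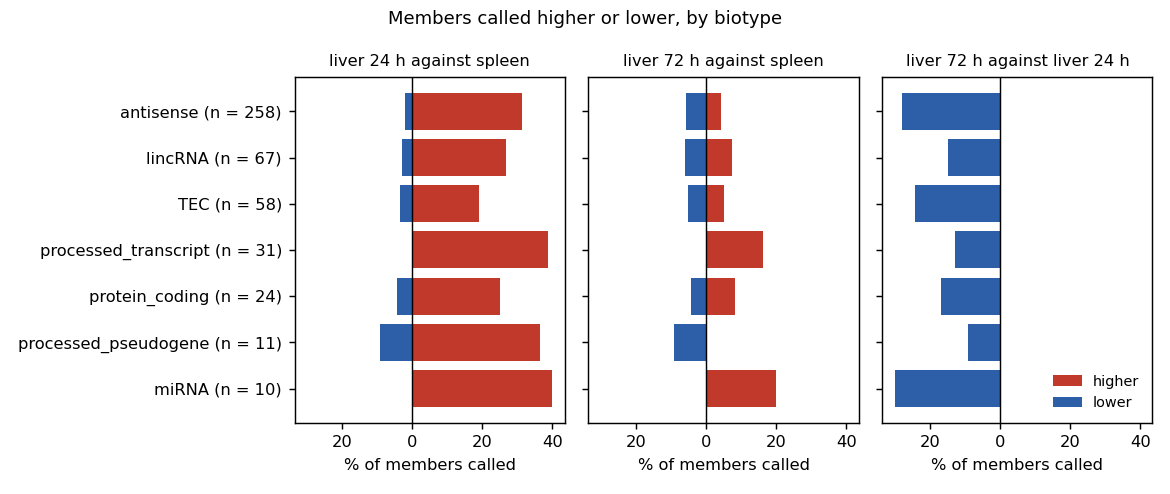
Percent of the members of each biotype called higher (red, to the right) or lower (blue, to the left) in the 3 comparisons, for the 7 biotypes with at least 10 members. With TMM scaling the bars lie mostly to the right in each biotype at 24 h and to the left only at 72 h against 24 h; without normalization factors 55 members were higher and 66 lower at 24 h, and 17 higher and 31 lower between the liver times.

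At 72 h few members differed from the spleen. In the comparison of liver at 72 h with the spleen, 53 members were called (11%; 29 higher and 24 lower), against 5.33% of all genes (2.63% higher and 2.71% lower) and 12.2% of the other genes at or over 50 CPM. The median log2 fold change was 0.04 over the members and -0.02 over all genes. Leaving out spleen replicate 3 raised the count to 95, leaving out spleen replicate 1 or 2 gave 30 and 29, and leaving out 72 h replicates 2 and 3 together gave 31. Without normalization factors 60 were called, 25 higher and 35 lower. Antisense members were split into 11 higher and 15 lower, lincRNA into 5 and 4, TEC into 3 and 3. All 5 called processed transcripts and both called miRNA members were higher. Of the tested genes outside the members, 8.12% of antisense genes were called against 10.1% of antisense members, 5.77% of lincRNA against 13.4% and 6.19% of TEC against 10.3%. For processed transcripts the shares were 8.08% against 16.1%, and for miRNA 3.92% against 20%. These differences were not tested, and the sets were not matched for level.

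Between the liver times all members called with TMM scaling were lower at 72 h, whereas without normalization factors 17 of 48 called were higher. In the comparison of 72 h with 24 h, 111 members were called (23.1%), 0 higher and 111 lower, against 4.49% of all genes (1.65% higher and 2.84% lower). Of the 1504 other genes at or over 50 CPM 12.4% were called, 3.26% higher and 9.11% lower. Among these, 11 were higher and 119 lower of the 957 with an opposite-strand exon, and 38 higher and 16 lower of the 541 with none. The medians were -0.48 over the members and 0.18 over all genes. Of the 111, 72 were antisense, 14 TEC, 10 lincRNA, 4 processed transcripts, 4 protein-coding and 3 miRNA, and the processed pseudogenes, pseudogenes, bidirectional promoter lncRNA and macro lncRNA gave 1 each. Of the tested genes outside the members, 7.43% of antisense genes were called against 27.9% of antisense members, 2.93% of TEC against 24.1% and 4.4% of lincRNA against 14.9%. These differences were not tested, and the sets were not matched for level. Without 24 h replicate 1 the count was 47, without 24 h replicate 2 it was 73, without 72 h replicate 1 it was 66, without 72 h replicate 3 it was 62, and without 72 h replicates 2 and 3 together it was 54. 70 members were both higher at 24 h than in the spleen and lower at 72 h than at 24 h. The same 24 h libraries enter both comparisons, so high values in them favour both calls at once. 27 members were higher than the spleen at both times, 114 at 24 h alone and 2, Gm23100 and Gm26916, at 72 h alone. 8 members were lower at both times, 3 at 24 h alone and 16 at 72 h alone. No member was called in opposite directions at the 2 times, and 276 were called in no comparison. The share of all tested genes with each of these joint outcomes was not computed, so the counts describe the members alone.

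**Figure D5:**
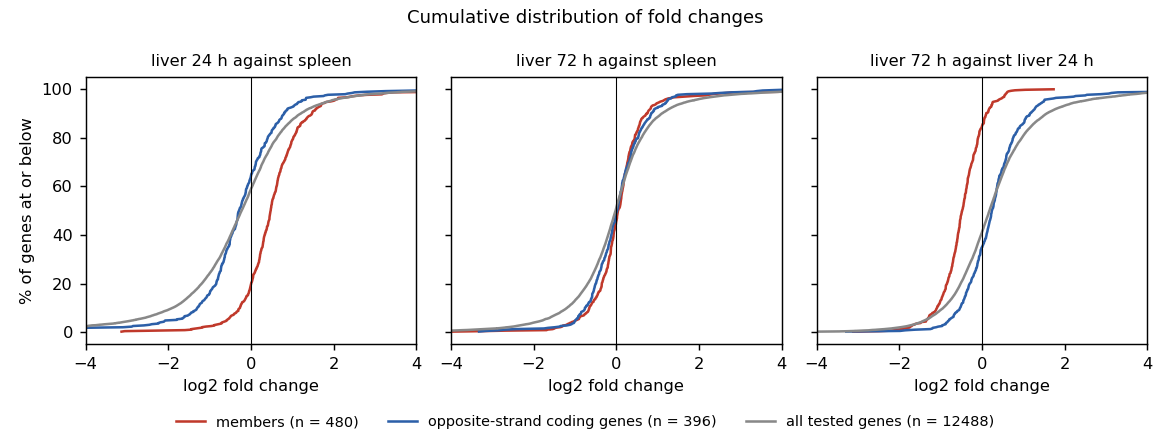
Cumulative percent of genes (vertical) at or below each log2 fold change (horizontal, -4 to 4 shown) for the 480 members (red), the 396 tested opposite-strand coding genes (blue) and all 12488 tested genes (grey), with TMM scaling. Over most of the range the members' curve lies to the right of both others at 24 h, close to them at 72 h against the spleen, and to their left at 72 h against 24 h; without normalization factors the 24 h medians would be -0.12 for the members and -0.81 for all genes.

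Among the members higher at both times, Gm26885 (chr17:29446919-29491925, minus strand; sequence above) shares 468 coding bases with Pim1, a serine/threonine kinase gene induced by cytokines. Its TMM CPM was 2071, 2169 and 2487 in the spleen libraries, 15075, 12647, 14084 and 21039 at 24 h and 8313, 13617, 16295, 6013 and 7977 at 72 h. Both liver groups lay wholly above the spleen, with log2 fold changes of 2.81 (SE 0.30, edgeR adjusted p = 3.37e-06) at 24 h and 2.22 (SE 0.28, edgeR adjusted p = 2.63e-05) at 72 h. Pim1 was at 58.5, 67.4 and 58.5 CPM in the spleen, 254, 278, 269 and 398 at 24 h and 254, 391, 493, 151 and 219 at 72 h, with log2 fold changes of 2.28 (SE 0.33, edgeR adjusted p = 0.000134) and 2.30 (SE 0.32, edgeR adjusted p = 9.76e-05), so the counts assigned to each gene of the locus rose.

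Gm16229 (chr10:127663839-127665484, plus strand), opposite Nab2, a corepressor of the EGR transcription factors, had the largest fold change at 24 h among the members named by rule. For Gm16229, TMM CPM was 19.5, 15.2 and 33.8 (spleen), 744, 536, 866 and 968 (24 h) and 668, 723, 551, 124 and 184 (72 h). No liver library overlapped the spleen, and the log2 fold changes were 5.08 (SE 0.54, edgeR adjusted p = 3.37e-06) and 4.29 (SE 0.51, edgeR adjusted p = 1.37e-05). At 72 h replicates 4 and 5 were the low ones. Gm16229 reached the level of 50 CPM through the liver groups alone, so the selection favoured this direction. Nab2 rose at 24 h by a log2 of 1.12 (SE 0.26, edgeR adjusted p = 0.00904), from 188, 135 and 209 to 325, 370, 424 and 419 CPM, and was at 284, 144, 150, 254 and 252 CPM at 72 h. Gm20412 (chr2:158117154-158117905, plus strand), a processed transcript with all of its 633 exon bases opposite exons of Tgm2, the gene of transglutaminase 2, which cross-links proteins, was also higher at both times. The spleen libraries gave Gm20412 566, 576 and 1199 TMM CPM, the 24 h libraries 5696, 4462, 8078 and 9849 and the 72 h libraries 5856, 6476, 10563, 877 and 1725. The 24 h libraries lay above the spleen, while 72 h replicate 4 fell within the spleen range, and the log2 fold changes were 3.17 (SE 0.58, edgeR adjusted p = 0.00116) and 2.71 (SE 0.55, edgeR adjusted p = 0.00343). Tgm2 was at 10.7, 9.79 and 17.4 CPM in the spleen, 46.0, 48.0, 36.8 and 54.7 at 24 h and 87.8, 105, 202, 9.73 and 27.9 at 72 h, where its log2 fold change was 2.78 (SE 0.60, edgeR adjusted p = 0.00598). In the member and in the coding gene alike, 72 h replicates 4 and 5 were the lowest of their group. Nab2 lost its call at 24 h without spleen replicate 2 (edgeR adjusted p up to 0.0749) and without normalization factors. Tgm2 lost its call at 72 h without spleen replicate 2 (edgeR adjusted p up to 0.0525), with limma-voom and without 72 h replicates 2 and 3 together.

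Gm45244, Gm9887 and Gm14321 were also higher at both times. Gm45244, a TEC locus that shares only untranslated bases with Acsl1, a long-chain acyl-CoA synthetase gene, was at 64.1 ± 18.7 (SD, n = 3) CPM in the spleen, 276 ± 81.6 (SD, n = 4) at 24 h and 241 ± 32.8 (SD, n = 5) at 72 h. Its groups did not overlap the spleen, with log2 fold changes of 2.10 (SE 0.28, edgeR adjusted p = 5.91e-05) and 1.91 (SE 0.27, edgeR adjusted p = 0.000105). Acsl1 was at 24.6, 18.5 and 31.5 CPM in the spleen, 8.20, 10.2, 16.3 and 13.1 at 24 h and 24.9, 23.1, 36.5, 19.5 and 19.5 at 72 h, and was not called. Gm9887, annotated as protein-coding, lies opposite the GTPase gene Arf6. Gm9887 rose by 1.58 (SE 0.22, edgeR adjusted p = 8.38e-05) at 24 h and 1.03 (SE 0.21, edgeR adjusted p = 0.00319) at 72 h, in log2 units. Gm14321 is a lincRNA with no opposite-strand gene. Gm14321 was measured at 17.6, 16.3 and 25.4 TMM CPM in the spleen, at 82.6, 71.4, 95.5 and 168 at 24 h and at 135, 161, 143, 56.3 and 86.3 at 72 h. All liver libraries lay above the spleen, with log2 fold changes of 2.39 (SE 0.37, edgeR adjusted p = 0.000287) and 2.55 (SE 0.37, edgeR adjusted p = 0.000122). Gm14321 shares exon bases with a gene on its own strand. It reached the level of 50 CPM through the liver groups alone, so the selection favoured this direction.

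A second group peaked at 24 h. Gm26728, a processed transcript opposite Cd9, the gene of a tetraspanin of the cell surface, had the smallest adjusted p of all members. Its TMM CPM was 242, 267 and 315 in the spleen libraries, 1472, 1372, 2037 and 1885 at 24 h and 846, 784, 600, 459 and 801 at 72 h. The 3 groups did not overlap. The log2 fold changes were 2.62 (SE 0.25, edgeR adjusted p = 8.48e-07) at 24 h, 1.35 (SE 0.23, edgeR adjusted p = 0.000746) at 72 h and -1.28 (SE 0.20, edgeR adjusted p = 0.00144) between the liver times. Cd9 was at 13.0, 15.2 and 7.72 CPM in the spleen, 17.7, 19.8, 17.0 and 13.1 at 24 h and 51.0, 59.4, 57.3, 6.95 and 17.5 at 72 h. Its log2 fold change at 72 h was 1.71 (SE 0.49, edgeR adjusted p = 0.0445), with groups that overlapped. Cd9 lost its call at 72 h without any one of spleen replicates 1, 2 and 3, 24 h replicates 1, 2, 3 and 4 and 72 h replicates 1, 2 and 3 (edgeR adjusted p up to 0.141), with limma-voom, with the filterByExpr filter, with only the groups compared in the fit, without 72 h replicates 2 and 3 together, without normalization factors and with TMM from genes without opposite-strand exons.

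Gm12868 (chr4:119133749-119138801, minus strand) and Gm12867 (chr4:119130292-119131001, minus strand) both lie opposite Slc2a1, which encodes the glucose transporter GLUT1, the former across 105 coding bases and the latter inside the gene without sharing an exon. For Gm12868, TMM CPM was 355, 357 and 231 (spleen), 2274, 1807, 1159 and 1572 (24 h) and 449, 518, 455, 538 and 813 (72 h). It rose by a log2 of 2.44 (SE 0.28, edgeR adjusted p = 6.88e-06) at 24 h, and its log2 fold change from 24 h to 72 h was -1.62 (SE 0.22, edgeR adjusted p = 0.000885). Gm12867 was measured at 18.1, 19.9 and 13.2 TMM CPM in the spleen, at 184, 218, 102 and 133 at 24 h and at 45.5, 110, 99.4, 77.1 and 88.2 at 72 h. Its libraries at both liver times lay above the spleen, with log2 fold changes of 3.22 (SE 0.35, edgeR adjusted p = 3.61e-06) and 2.30 (SE 0.33, edgeR adjusted p = 0.00011), and -0.92 (SE 0.26, edgeR adjusted p = 0.0488) between the liver times. Slc2a1, at 16.7, 11.6 and 11.3 CPM in the spleen, 52.3, 48.6, 42.4 and 34.3 at 24 h and 26.6, 25.9, 28.2, 22.9 and 38.3 at 72 h, rose by a log2 of 1.76 (SE 0.32, edgeR adjusted p = 0.00102) at 24 h. At 72 h its log2 fold change was 1.11 (SE 0.30, edgeR adjusted p = 0.0313). The 2 members and the coding gene of this locus each had their highest value in a 24 h library. Gm12867 reached the level of 50 CPM through the liver groups alone, so its rise over the spleen was favoured by the selection. Gm12867 lost its call between the liver times without any one of spleen replicates 1 and 2, 24 h replicates 1, 2 and 4 and 72 h replicates 1, 3, 4 and 5 (edgeR adjusted p up to 0.174), with limma-voom, without 72 h replicates 2 and 3 together and without normalization factors. Slc2a1 lost its call at 72 h without any one of spleen replicates 1, 2 and 3 and 72 h replicates 1, 2, 3 and 5 (edgeR adjusted p up to 0.179), without the filter, with the replicate block, with only the groups compared in the fit, without 72 h replicates 2 and 3 together and without normalization factors.

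Gm20319 (chr16:26714446-26755502, minus strand) lies opposite Il1rap, which encodes the accessory chain of the interleukin-1 receptor. The spleen libraries gave Gm20319 584, 683 and 758 TMM CPM, the 24 h libraries 6196, 4163, 2185 and 3157 and the 72 h libraries 896, 1137, 494, 1373 and 1389. The 24 h libraries lay above all others, with a log2 fold change of 2.54 (SE 0.34, edgeR adjusted p = 6.56e-05) over the spleen and -1.89 (SE 0.28, edgeR adjusted p = 0.00133) from 24 h to 72 h. Il1rap was at 29.7, 30.1 and 26.7 CPM in the spleen, 73.8, 59.4, 26.2 and 31.4 at 24 h and 28.7, 33.2, 19.2, 20.8 and 56.5 at 72 h, and was not called. Gm28033, of the miRNA biotype and printed above, lies wholly in coding sequence of Ppp1r18, whose product binds actin and protein phosphatase 1. Its TMM CPM was 430, 518 and 378 in the spleen libraries, 2296, 1930, 1606 and 1815 at 24 h and 918, 937, 721, 503 and 678 at 72 h. It rose by a log2 of 2.11 (SE 0.24, edgeR adjusted p = 7.35e-06) at 24 h, and from there to 72 h its log2 fold change was -1.35 (SE 0.20, edgeR adjusted p = 0.00133). Against the spleen its 72 h log2 fold change was 0.77 (SE 0.22, edgeR adjusted p = 0.0439), with groups that overlapped. Ppp1r18, at 218, 225 and 347 CPM in the spleen and 761, 682, 585 and 612 at 24 h, rose by 1.32 (SE 0.26, edgeR adjusted p = 0.00208). Gm43182, a TEC locus inside Fbxl5, an F-box gene of iron sensing, went from 13.5, 13.8 and 23.2 CPM in the spleen to 271, 246, 96.2 and 135 at 24 h and 58.6, 74.6, 41.5, 58.4 and 54.5 at 72 h. Its 3 groups did not overlap, and its log2 fold changes were 3.46 (SE 0.37, edgeR adjusted p = 3.61e-06), 1.76 (SE 0.34, edgeR adjusted p = 0.0022) and, between the liver times, -1.70 (SE 0.28, edgeR adjusted p = 0.00215). Gm43182 reached the level of 50 CPM through the liver groups alone, so its rise over the spleen was favoured by the selection. Gm15347, opposite the phospholipid flippase gene Atp11a, rose by a log2 of 1.13 (SE 0.34, edgeR adjusted p = 0.0374) at 24 h, and from 24 h to 72 h its log2 fold change was -1.89 (SE 0.29, edgeR adjusted p = 0.00144). Gm28033 lost its call at 72 h without any one of spleen replicates 1, 2 and 3, 24 h replicates 2 and 4 and 72 h replicates 1, 2 and 3 (edgeR adjusted p up to 0.178), with only the groups compared in the fit, without 72 h replicates 2 and 3 together, without normalization factors and with TMM from genes without opposite-strand exons. Gm15347 lost its call at 24 h without any one of spleen replicates 1, 2 and 3 and 24 h replicates 1 and 2 (edgeR adjusted p up to 0.116) and without normalization factors.

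The members that were lower in the liver than in the spleen were led by Gm13571 (chr2:60338188-60371234, plus strand), opposite Ly75, which encodes the endocytic receptor DEC-205. Gm13571 was measured at 352, 420 and 129 TMM CPM in the spleen, at 91.5, 42.0, 47.4 and 69.3 at 24 h and at 34.7, 39.4, 25.4, 26.4 and 32.4 at 72 h. All liver libraries lay below the spleen, with log2 fold changes of -2.26 (SE 0.34, edgeR adjusted p = 0.000174) at 24 h and -3.24 (SE 0.32, edgeR adjusted p = 1.4e-06) at 72 h. Ly75 had 12 to 87 counts per library in the spleen, 0 to 2 at 24 h and 3 to 5 at 72 h, and its log2 fold change at 72 h was -3.32 (SE 0.59, edgeR adjusted p = 0.00104). In the spleen, replicate 3 was the lowest library for both genes. Gm13571 was under 50 CPM in each 72 h library, so the selection favoured its lower values at that time. Gm37256 (chr3:75956101-76001136, plus strand), the member nearest the limit of 50 CPM, lies opposite Golim4, a Golgi membrane protein gene. For Gm37256, TMM CPM was 158, 185 and 79.7 (spleen), 17.0, 4.80, 26.2 and 16.8 (24 h) and 16.3, 14.5, 11.1, 38.2 and 32.4 (72 h). It reached the level of 50 CPM only through the spleen, where it is high, so its lower values in the liver were favoured by the selection and are given with no test. Golim4, at 57.5, 61.3 and 22.8 CPM in the spleen, 3.15, 3.60, 0 and 0 at 24 h and 4.88, 5.18, 6.81, 3.47 and 5.19 at 72 h, fell, with log2 fold changes of -4.68 (SE 0.60, edgeR adjusted p = 3.86e-05) and -3.16 (SE 0.48, edgeR adjusted p = 0.000212).

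Gm42722 (chr3:106001561-106017539, plus strand) lies opposite the chitinase-like gene Chil5 and fell late. It was under 50 CPM in each 72 h library, so the selection favoured this fall. The spleen libraries gave Gm42722 295, 265 and 63.3 TMM CPM, the 24 h libraries 172, 160, 55.9 and 62.0 and the 72 h libraries 5.96, 16.2, 4.95, 13.2 and 26.0. The 72 h libraries lay below all others, with a log2 fold change of -3.997 (SE 0.50, edgeR adjusted p = 2.05e-05) against the spleen and -3.11 (SE 0.47, edgeR adjusted p = 0.00144) against 24 h. Chil5 was at 29.7, 27.5 and 72.3 CPM in the spleen, 55.5, 60.6, 29.0 and 81.0 at 24 h and 34.7, 35.2, 14.5, 98.7 and 46.1 at 72 h, and was not called. Lower in the liver at both times were also Gm26571 opposite the ribosomal oxygenase gene Riox1, Gm38336 opposite the guanine nucleotide exchange factor gene Arhgef4, and the protein-coding model Gm5901 opposite Fam160a2. Gm26571 went from 317 ± 84.2 (SD, n = 3) CPM in the spleen to 140 ± 23.8 (SD, n = 4) at 24 h and 109 ± 30.5 (SD, n = 5) at 72 h. Gm38336 went from 209 ± 42.3 (SD, n = 3) to 68.9 ± 20.3 (SD, n = 4) and 77.0 ± 24.7 (SD, n = 5), while Arhgef4 was at 148 ± 30.3 (SD, n = 3), 175 ± 62.4 (SD, n = 4) and 133 ± 28.0 (SD, n = 5) CPM and was not called. At 72 h the log2 fold changes were -1.54 for Gm26571, -1.44 for Gm38336 and -1.49 for Gm5901 (edgeR adjusted p = 0.000401, 0.00163 and 0.00249), and at 24 h that of Gm5901 was -1.17 (SE 0.31, edgeR adjusted p = 0.0183). The processed pseudogene Gm16042 opposite Glcci1 and Gm14508 inside Prkab1, a subunit gene of the kinase AMPK, reached the level of 50 CPM only through the spleen, so their values are given with no test. Gm16042 was at 114 ± 6.32 (SD, n = 3) CPM in the spleen, 44.5 ± 13.9 (SD, n = 4) at 24 h and 44.6 ± 11.1 (SD, n = 5) at 72 h, and Gm14508 at 95.3 ± 4.26 (SD, n = 3), 48.8 ± 14.4 (SD, n = 4) and 33.9 ± 11.7 (SD, n = 5). Gm5901 lost its call at 24 h without any one of spleen replicate 3 and 24 h replicate 4 (edgeR adjusted p up to 0.0917).

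The remaining members given by rule changed less. Of the protein-coding models, Gm17606 opposite Acin1, Gm21958 opposite Supt20 and Gm10642 opposite Mindy2 were higher at 24 h, with log2 fold changes of 0.78, 0.74 and 1.22 (edgeR adjusted p = 0.00999, 0.0379 and 0.00498). Gm10135, which lies almost wholly in coding sequence of Slain2, was lower at 72 h than at 24 h, with a log2 fold change of -0.85 (SE 0.22, edgeR adjusted p = 0.03). Gm15821, the macro lncRNA opposite Tap2 of antigen processing, went from 1825 ± 64.7 (SD, n = 3) CPM in the spleen to 3305 ± 604 (SD, n = 4) at 24 h, a log2 fold change of 0.86 (SE 0.19, edgeR adjusted p = 0.00612). From 24 h to 72 h the log2 fold changes were -0.60 (SE 0.16, edgeR adjusted p = 0.0407) for Gm15821 and -0.87 (SE 0.23, edgeR adjusted p = 0.0308) for Gm10642. The pseudogenes Gm9823 opposite Rapgef1 and Gm11699 inside Cd300lb rose at 24 h by 0.74 (SE 0.20, edgeR adjusted p = 0.0236) and 1.11 (SE 0.32, edgeR adjusted p = 0.0292). The snRNA Gm23100 was at 456, 482 and 476 CPM in the spleen and 812, 1056, 1096, 502 and 718 at 72 h, a log2 fold change of 0.83 (SE 0.24, edgeR adjusted p = 0.0442). Members that head their biotype without a call were Gm22953 (miRNA, opposite Serf2), Gm26631 (bidirectional promoter lncRNA, opposite Cox5a), Gm45464 (sense intronic, opposite Rbl2), Gm16976 (transcribed unprocessed pseudogene, opposite Ptgdr), Gm27747 (misc RNA, opposite the non-coding Dleu2) and Gm11212 (unprocessed pseudogene, no opposite-strand gene). Their means over the 12 libraries were 1852, 417, 302, 169, 157 and 72.4 CPM. Gm17606 lost its call at 24 h without any one of spleen replicates 1 and 2 (edgeR adjusted p up to 0.0629) and without normalization factors. Gm21958 lost its call at 24 h without any one of spleen replicates 1, 2 and 3 and 24 h replicates 1, 3 and 4 (edgeR adjusted p up to 0.133), without the filter, with the replicate block and without normalization factors. Gm10642 lost its call at 24 h without spleen replicate 1 (edgeR adjusted p up to 0.0504) and without normalization factors. Gm10135 lost its call between the liver times without any one of 24 h replicates 1, 2 and 4 and 72 h replicates 1, 2 and 3 (edgeR adjusted p up to 0.085), without 72 h replicates 2 and 3 together and without normalization factors. Gm15821 lost its call at 24 h without normalization factors. Gm15821 lost its call between the liver times without any one of spleen replicates 1 and 2, 24 h replicates 1, 3 and 4 and 72 h replicates 1, 2, 3, 4 and 5 (edgeR adjusted p up to 0.121), without the filter, with the replicate block, without 72 h replicates 2 and 3 together and without normalization factors. Gm10642 lost its call between the liver times without any one of 24 h replicates 1, 2 and 4 and 72 h replicates 1, 2 and 3 (edgeR adjusted p up to 0.112), without 72 h replicates 2 and 3 together and without normalization factors. Gm9823 lost its call at 24 h without any one of spleen replicates 1 and 2 and 24 h replicates 1 and 2 (edgeR adjusted p up to 0.127), without the filter, with the replicate block and without normalization factors. Gm11699 lost its call at 24 h without any one of spleen replicates 1 and 2 and 24 h replicates 3 and 4 (edgeR adjusted p up to 0.162) and without normalization factors. Gm23100 lost its call at 72 h without any one of spleen replicates 1, 2 and 3, 24 h replicates 2 and 4 and 72 h replicates 1, 2 and 3 (edgeR adjusted p up to 0.179), with only the groups compared in the fit, without 72 h replicates 2 and 3 together, without normalization factors and with TMM from genes without opposite-strand exons.

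The other coding genes opposite these members were at low to moderate levels. Mean CPM in the spleen, at 24 h and at 72 h was, in that order, H3f3a 82.8, 46.9 and 58.7, Mob3a 20.7, 16.0 and 23.8, Fmnl1 136, 175 and 188, Sorl1 466, 314 and 382, Gpi1 119, 63.5 and 59.9, R3hdm4 70.8, 61.7 and 50.4. Sorl1 was the most abundant of these. For the next genes the means were Arf6 39.5, 66.8 and 59.3, Atp11a 31.7, 52.7 and 24.7, Riox1 35.1, 20.1 and 18.7, Glcci1 0.819, 2.17 and 1.06, Fam160a2 23.1, 14.5 and 16.8, Acin1 136, 159 and 155, Supt20 21.2, 14.04 and 26.3. Among them Glcci1 was the lowest and Acin1 the highest. For the last the means were Mindy2 85.9, 87.7 and 79.9, Slain2 8.31, 8.81 and 7.84, Tap2 25.6, 23.5 and 25.4, Rapgef1 14.7, 24.8 and 19.0, Serf2 25.01, 13.0 and 21.5, Cox5a 1.77, 0.315 and 3.14, Rbl2 41.7, 31.8 and 35.0, Ptgdr 1.08, 0.359 and 0.564. Cox5a and Ptgdr were the lowest of these. None of the genes in this paragraph was called in any of the 3 comparisons, and the lowest edgeR adjusted p among them was 0.0553.

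Where a member and its coding gene were both called, they went the same way. At 24 h 20 pairs were called together in 1 direction and 0 in opposite directions, 112 pairs had only the member called and 19 only the coding gene. The coding genes were called in 37 of 396 cases (9.34%; 20 higher and 17 lower), near the 9.75% of all genes. At 72 h against the spleen 11 pairs were called together and 0 in opposite directions, and between the liver times 2, Gm15651/Dgkg and Gm9725/Usp38, both lower at 72 h. Only the member was called in 30 pairs at 72 h and in 101 between the liver times, and only the coding gene in 9 and 15. The coding genes were called in 4.8% of cases at 72 h and 4.29% between the liver times, near the 5.33% and 4.49% of all genes. Across the 414 pairs the log2 fold changes of member and coding gene correlated at r = 0.58 at 24 h, 0.60 at 72 h and 0.33 between the liver times (rho = 0.51, 0.53 and 0.37), as descriptions across genes in the same libraries. Member and coding gene of a pair were counted in the same cells and share a locus, so these values do not count independent observations. Gm15651 lost its call between the liver times without 72 h replicates 2 and 3 together. Dgkg lost its call between the liver times without 24 h replicate 2 (edgeR adjusted p up to 0.0729). Gm9725 lost its call between the liver times without any one of 24 h replicate 1 and 72 h replicates 1 and 3 (edgeR adjusted p up to 0.0871), without 72 h replicates 2 and 3 together and without normalization factors. Usp38 lost its call between the liver times with limma-voom.

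The pairs below are named because both genes were called, a choice made after their values were seen. Gm28913 and Gm28914, both opposite Ikbke, the gene of the kinase IKK epsilon, rose by a log2 of 5.34 and 5.21 at 24 h, and Ikbke by 4.10 (SE 0.89, edgeR adjusted p = 0.00503). Ikbke had 2 to 6 counts per spleen library and 35 to 57 at 24 h. Gm29233 rose with Thbs1, the gene of thrombospondin 1, by 4.61 (SE 0.78, edgeR adjusted p = 0.000587) in the member and 3.26 (SE 0.79, edgeR adjusted p = 0.0102) in the coding gene. Gm44710 rose with Zfp36, whose product tristetraprolin promotes decay of cytokine mRNA, by 1.20 (SE 0.24, edgeR adjusted p = 0.00262) and 1.45 (SE 0.24, edgeR adjusted p = 0.000489). Gm26649 rose with the transcription factor gene Klf7, as did Gm13748, which reached the level of 50 CPM only through the 24 h group and so was selected toward this direction. Gm16599 rose with Cux1, Gm26759 with Irf2bp2, Gm25238 with Cacul1, Gm24157 with Ppp2ca, Gm9725 with Usp38 and Gm28192 with Csnk1d. Gm17552 fell with Carns1. For Gm45752, TMM CPM was 6.49, 2.90 and 1.93 (spleen), 500, 626, 138 and 248 (24 h) and 74.8, 179, 118, 13.9 and 18.8 (72 h). Gm45752 rose by a log2 of 6.69 at 24 h, the highest of the members, opposite the dipeptidase gene Dpep2, which had 0 to 1 counts per spleen library and 1 to 13 at 24 h. Gm28913, Gm28914 and Gm45752 reached the level of 50 CPM through the liver groups alone, so the selection favoured their rise. At 72 h Gm28913, Gm28914, Gm29233 and Gm44710 and their coding genes were again called higher than the spleen, and Gm26527/Arsb and Gm29477/Fam117a were called lower. Ikbke was at 28.2, 53.5, 47.7, 0 and 3.89 CPM at 72 h, against 0.928, 2.17 and 1.93 in the spleen, so replicate 4 lay below the spleen. Thbs1 was at 16.7 CPM in 72 h replicate 4, within the spleen range of 3.62 to 17.7. Leaving out spleen replicate 1 or 2 ended the 24 h calls of Klf7, Dpep2, Cux1, Irf2bp2, Gm24157, Ppp2ca, Gm9725, Gm28192 and Carns1 and the 72 h calls of Ikbke, Gm44710, Gm26527, Arsb and Gm29477, and leaving out spleen replicate 3 ended the 24 h call of Gm17552, which then had an edgeR adjusted p of 0.355. With limma-voom the 24 h call of Usp38 and the 72 h call of Gm28914 were lost. Ikbke lost its call at 24 h with limma-voom, and its call at 72 h with limma-voom and without 72 h replicates 2 and 3 together. Thbs1 lost its call at 24 h without any one of spleen replicates 1 and 2 (edgeR adjusted p up to 0.0639) and with limma-voom. Gm44710, Cux1, Irf2bp2, Gm24157, Ppp2ca, Gm9725 and Gm28192 lost their calls at 24 h without normalization factors. Ppp2ca and Gm28192 also lost theirs without the filter and with the replicate block. Carns1 and Gm17552 lost theirs with TMM from genes without opposite-strand exons, and Gm17552 also with limma-voom and without 24 h replicate 1 or 2. The 72 h calls of Gm26527, Arsb and Gm29477 were lost without 72 h replicates 2 and 3 together.

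Gm14023, a processed transcript opposite Il1a, the gene of the cytokine interleukin-1 alpha, had the highest log2 fold change of the members at 72 h and was picked out for it. Gm14023 was measured at 0.928, 2.17 and 1.29 TMM CPM in the spleen, at 51.7, 36.0, 113 and 230 at 24 h and at 87.3, 168, 262, 13.9 and 38.9 at 72 h. The values against the spleen were 6.12 at 24 h and 6.22 at 72 h in log2 units. Gm14023 reached the level of 50 CPM through the liver groups alone, so this direction was favoured by the selection and the values are given with no test.

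The remaining paragraphs name members with their opposite-strand coding gene after a stroke, by the outcome of the 3 comparisons, and within each outcome by biotype and falling mean level. Higher than the spleen at 24 h or 72 h were 143 members, 127 of them sharing exons with the coding gene. The 79 antisense ones with shared exons were Gm26885/Pim1, Gm20531/Ptpn6, Gm20511/Fmnl1, Gm5577/H1fx, Gm37401/Rhoa, Gm2245/Fyb, Gm44649/Iqgap1, Gm16282/Rasgrp4, Gm15491/Mgea5, Gm12359/Casc3, Gm16712/Ebi3, Gm44710/Zfp36, Gm44123/Iqsec1, Gm20319/Il1rap, Gm20496/Psmb8, Gm12841/Atp6v0b, Gm26586/Tpm4, Gm14453/Rbm38, Gm14455/Cass4, Gm45472/Lpcat2, Gm17122/Coro1c, Gm19412/Tapbp, Gm16892/Tbc1d23, Gm26759/Irf2bp2, Gm16059/Csnk1e, Gm11131/H2-Q4, Gm44876/Il4ra, Gm45507/Bnip3, Gm9917/Rassf1, Gm12868/Slc2a1, Gm16033/Adam19, Gm36551/Pilrb1, Gm44170/Sec61a1, Gm15396/Napsa, Gm15283/Hif1a, Gm16175/Bcl3, Gm28364/Aamp, Gm44949/Zfp710, Gm16034/Adam19 and Gm16229/Nab2, followed by Gm37305/Ccnl1, Gm15347/Atp11a, Gm28192/Csnk1d, Gm15350/Atp11a, Gm17134/Ptbp1, Gm15337/Arhgap26, Gm16578/Hrh2, Gm20548/Wdfy3, Gm11626/Ifi35, Gm28913/Ikbke, Gm26533/Ammecr1l, Gm11696/Gna13, Gm9725/Usp38, Gm10244/Mkrn1, Gm9888/Cmtm7, Gm42809/Il6ra, Gm12758/4931406P16Rik, Gm45606/Slc43a2, Gm28914/Ikbke, Gm28529/Epc1, Gm26679/Mbnl2, Gm16172/Tmem63b, Gm15956/Npc1, Gm13066/Ctnnbip1, Gm16599/Cux1, Gm16206/Nhlrc3, Gm45437/Rasip1, Gm14798/Zfx, Gm17089/Etv6, Gm26626/Runx1, Gm16587/Selp, Gm26542/Ltc4s, Gm13748/Klf7, Gm10658/Ptpn9, Gm17435/Med26, Gm7854/Cpeb2, Gm15354/March1, Gm10640/Gramd1a and Gm36992/Cep170. The 15 lincRNA were Gm26541/Mob3a, Gm26899/Zfp106, Gm26649/Klf7, Gm29233/Thbs1, Gm26518/Pcbp2, Gm26857/Lyn, Gm26841/H13, Gm16548/Selp, Gm26538/Kdm3b, Gm26563/Suz12, Gm45752/Dpep2, Gm26720/Hdac4, Gm26816/Cog4, Gm26742/Zfp608 and Gm26643/Stoml2. The 8 TEC loci were Gm43963/Irak2, Gm44616/Cyfip1, Gm45133/Ccdc106, Gm45244/Acsl1, Gm43474/Slc15a4, Gm19918/Fam20b, Gm42585/Kmt2c and Gm37415/Sbno1. The 11 processed transcripts were Gm20412/Tgm2, Gm20528/Ugt1a1, Gm12992/Srsf4, Gm26728/Cd9, Gm20033/Klf3, Gm20490/Rbm38, Gm20536/Tgoln1, Gm20470/Katna1, Gm12940/Zmym1, Gm14023/Il1a and Gm17106/Lrch3. The 6 protein-coding models included Gm20721/Gnas, Gm9887/Arf6, Gm17606/Acin1, Gm10642/Mindy2 and Gm21958/Supt20. The other biotypes gave the processed pseudogene Gm13477/Gtdc1, the miRNA members Gm28033/Ppp1r18, Gm24157/Ppp2ca and Gm25238/Cacul1, the bidirectional promoter lncRNA Gm17251/Rab11b and Gm44140/Atf7ip, the pseudogene Gm9823/Rapgef1 and the macro lncRNA Gm15821/Tap2. Inside the body of the coding gene lay 10 more, the antisense Gm12867/Slc2a1 and Gm16174/Bcl3, the TEC loci Gm43068/Oas2 and Gm43182/Fbxl5, the processed pseudogenes Gm11699/Cd300lb, Gm8250/Ostf1 and Gm20519/AB124611, the pseudogene Gm9985/Ggt5, the processed transcript Gm16091/Tpm4 and the miRNA Gm26268/Litaf. With no coding gene on the other strand were 6: the TEC Gm37376, the snRNA Gm23100 and the lincRNA Gm26809, Gm26916, Gm14321 and Gm29264. Bcl3, Irak2, Il1a, Il4ra, Il6ra, Ebi3, Hif1a and Lyn, found among these coding genes and picked out after the values were seen, act in cytokine, hypoxia or kinase signalling of leukocytes, and they are named as loci, since it is the member that was called.

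Lower than the spleen at 24 h or 72 h were 27 members. The 15 antisense ones were Gm17552/Carns1, Gm16575/Sun2, Gm42846/Mxd4, Gm11724/Tmc8, Gm10552/Sp140, Gm26571/Riox1, Gm10550/Thap4, Gm16982/Ap2a2, Gm13571/Ly75, Gm38336/Arhgef4, Gm12523/Sort1, Gm42722/Chil5, Gm29477/Fam117a, Gm17133/Man2a1 and Gm11592/Npepps. The lincRNA were Gm26527/Arsb, Gm39214/Itfg1 and Gm37256/Golim4, the TEC loci Gm9905/Mettl9 and Gm45236/Gde1, the protein-coding model Gm5901/Fam160a2 and the processed pseudogene Gm16042/Glcci1. Without shared exons were the antisense Gm14508/Prkab1 inside the gene, the TEC Gm45694/Cyp4f18 and the lincRNA Gm38102/Rhof near it, and the lincRNA Gm26526 and the TEC Gm38244 with no coding gene. Called only between the liver times, and lower at 72 h, were 34 members, all with shared exons: the antisense Gm16214/Sorl1, Gm15886/Hipk1, Gm17017/Sp140, Gm10814/Capn1, Gm43495/Pilrb2, Gm13008/Eloa, Gm29585/Zc3h10, Gm16192/Mtus1, Gm16573/Parp4, Gm44759/Rnf40, Gm37756/Copa, Gm13610/Prrc2b, Gm11723/Tmc8, Gm15932/Dcaf11, Gm12531/4932438A13Rik, Gm9754/Fbxw8, Gm42893/Sass6, Gm37035/P2ry1, Gm44317/Erc1, Gm17130/Babam2, Gm20406/Klhdc4 and Gm15651/Dgkg, the lincRNA Gm26762/Gpi1, Gm16933/Plekha2 and Gm17315/Cdc42ep3, the TEC Gm26596/Atxn7l3b, Gm26616/Ppp1r15b, Gm37539/Qsox1, Gm9870/Slain2, Gm45205/Pycard, Gm42934/Wdfy3 and Gm42858/Stx18, and the protein-coding Gm26602/R3hdm4 and Gm10135/Slain2.

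Called in no comparison were 276 members, 241 with shared exons. The 131 antisense ones included Gm15629/Lcp1, Gm26648/Nub1, Gm26642/Rnpep, Gm17344/Ap1g1, Gm37468/Sirpb1b, Gm13563/Entr1, Gm14493/Mid1ip1, Gm29434/Mknk1, Gm45894/Ankrd11, Gm42457/Mfsd14a, Gm44709/Supt5, Gm15978/Ttc7, Gm15929/Tmc4, Gm17035/Ndrg1, Gm11537/Snx11, Gm45515/Swap70, Gm44777/Pik3c2a, Gm43579/Ddx54, Gm17077/Usf2, Gm17638/Eif3d, Gm17092/Hnrnpd, Gm12352/Mien1, Gm12977/Rps6ka1, Gm26590/Chd8, Gm11457/Dnttip1, Gm17139/Arel1, Gm16069/Scamp3, Gm14252/Cnbd2, Gm20463/Rnf5, Gm17178/Aspscr1, Gm14966/Map4k2, Gm26827/Chsy1, Gm4673/Lsr, Gm11508/Srsf1, Gm15819/Rell1, Gm28379/Herc1, Gm42477/Rogdi, Gm16754/Keap1, Gm43118/Pitpnb, Gm28198/Srcap, Gm16234/Vta1, Gm17201/Ankrd52, Gm45051/0610030E20Rik, Gm17111/Dync1h1 and Gm17029/Pex14. The list went on with Gm11201/Ksr1, Gm13068/Slc25a33, Gm28731/Bnip2, Gm11583/Kpnb1, Gm42917/Trafd1, Gm26636/Copg1, Gm15567/Coq8b, Gm10584/Chst15, Gm15492/Brpf1, Gm15265/Pi4kb, Gm27232/Rfx7, Gm45371/Zfp703, Gm11973/Purb, Gm20522/Gpank1, Gm43126/Ccnd2, Gm29542/Cbll1, Gm26944/Pcf11, Gm44686/Chd2, Gm16541/R3hcc1l, Gm17036/Kif5b, Gm17477/Senp6, Gm15884/Phb2, Gm7008/Ifrd1, Gm17231/Arid3b, Gm10785/Cryzl1, Gm12264/Mprip, Gm16144/Anxa2, Gm16861/Nudt16l1, Gm15200/Ostm1, Gm37915/Mfsd9, Gm12999/Atpif1, Gm15533/Trim72, Gm45631/Clcn4, Gm26628/Polr1a, Gm16062/Cops3, Gm26826/Foxj2, Gm10634/Mthfsl, Gm11646/Dcaf7, Gm12802/Tceanc2, Gm26724/Lemd2, Gm45709/Sprtn, Gm45411/Hook3, Gm44287/Ino80b, Gm15336/Arhgap26 and Gm26770/Rhno1. It closed with Gm16008/Tnfrsf18, Gm26749/Birc6, Gm16278/Pigq, Gm16726/Gbf1, Gm27184/Tmem185b, Gm45187/Uvrag, Gm43069/Oas1c, Gm17041/Cish, Gm16984/Eci2, Gm15774/Eef2k, Gm10143/Fen1, Gm15856/Tuba8, Gm11739/Prpsap1, Gm6598/Tmem248, Gm44877/Tmem86b, Gm15591/Abhd10, Gm29361/Rbm25, Gm10603/C2cd3, Gm33051/Rpl22l1, Gm28306/Imp4, Gm20404/Tmcc1, Gm10138/Ivns1abp, Gm17023/Pcid2, Gm16279/Atat1, Gm11706/Cep95, Gm27241/Rfx7, Gm45095/Cebpg, Gm42670/Tmem33, Gm15122/Dazap1, Gm15518/Ift57, Gm42596/Fbrsl1, Gm26873/Riok2, Gm28501/Nek7, Gm17529/Sec23a, Gm28536/Stk25, Gm26879/Rcor3, Gm15964/Gart, Gm15537/Cluap1, Gm15868/Fopnl and Gm26852/Ercc2. The 29 lincRNA without a call included Gm17275/H3f3a, Gm10684/Jaml, Gm26882/Morf4l1, Gm26582/G3bp2, Gm26765/Tmpo, Gm26675/Zfp597, Gm44662/Hamp2, Gm26699/Luc7l2, Gm26819/Med10, Gm19710/Ubap2l, Gm26773/Tgds, Gm28592/Phlda1, Gm26722/Rbbp4, Gm44148/Usp18, Gm26768/Dctn6, Gm38948/Bicra, Gm26904/Bicral, Gm26792/Cuedc2, Gm17354/Cc2d1b, Gm26733/Zfp26, Gm26517/Heatr5a, Gm26718/Pgam5, Gm26536/Wdfy2, Gm17300/Rcc1, Gm26530/Rtca, Gm26790/Zfp507 and Gm17484/Bag4. The 30 TEC loci without a call were Gm44729/Sephs2, Gm44103/Washc2, Gm43863/Hnrnpf, Gm45760/Got2, Gm43292/Eif2ak3, Gm43857/Usp33, Gm44878/Ppp6r1, Gm38316/Pnp, Gm37939/Vps37b, Gm43435/Tmem167b, Gm43621/Ptgs1, Gm44560/Ube3a, Gm43966/Tax1bp1, Gm38160/Rab33b, Gm42727/Pds5a, Gm45412/Golga7, Gm45444/Cyth2, Gm20731/Cc2d1b, Gm43808/Tmem214, Gm42967/Usp33, Gm37270/Nipal3, Gm43737/Mtx1, Gm43766/Rab2b, Gm43372/Abhd11, Gm4430/Slc20a1, Gm44981/Slc6a6, Gm42729/Pds5a, Gm37206/Rbm4b, Gm43859/Usp33 and Gm37127/Fam168b. The 19 processed transcripts without a call were Gm28417/Ptpn18, Gm13562/Snapc4, Gm13568/Notch1, Gm15787/Chfr, Gm9752/4833420G17Rik, Gm16201/6430531B16Rik, Gm11574/Osbpl7, Gm15471/Dclre1b, Gm9967/Gdpd3, Gm20650/Tmem219, Gm16731/Coro2a, Gm16153/Rmnd1, Gm12404/Fam219a, Gm11100/Thoc7, Gm14965/Rasgrp2, Gm11769/Slc38a10, Gm12592/Patz1, Gm13625/Ssb and Gm10575/Cracr2b. The 14 protein-coding models without a call were Gm17509/Emb, Gm17334/Irf1, Gm10197/Mxi1, Gm10392/Abhd15, Gm10401/Sppl3, Gm26566/Klhl9, Gm9821/Dgkz, Gm17018/Fbxw4, Gm16181/Nfkbil1, Gm19345/Ceacam16, Gm16253/Polr3gl, Gm9970/Nrbp1, Gm26657/Actl7b and Gm20481/Hspa1a. The miRNA members here were Gm22953/Serf2, Gm44364/H2afj, Gm44313/Trim17, Gm44335/H2afx, Gm24082/Zfp68 and Gm44471/Pacs2, and the bidirectional promoter lncRNA were Gm26631/Cox5a, Gm9828/Btf3, Gm32031/Spty2d1, Gm9939/Tnks and Gm2895/Ndrg1. The pseudogenes were Gm17711/Abracl, Gm9812/Ralgapa1 and Gm10434/2310033P09Rik, with the processed Gm6649/Slc30a7 and Gm43106/Slc30a7 and the transcribed unprocessed Gm16976/Ptgdr, and the sense intronic member was Gm45464/Rbl2. Inside the coding gene's body were the antisense Gm26789/Herc4, Gm16193/Mtus1, Gm17112/Gnb2, Gm44199/Brk1, Gm44284/Zyx, Gm45479/Irf2 and Gm16185/Slc25a36, the lincRNA Gm26869/Zfp971, Gm20735/Gm20388 and Gm26561/Emilin2, and the TEC Gm44401/Plbd1 and Gm43980/Tra2a. Near a coding gene were the lincRNA Gm26767/Slc25a36, Gm27042/Aldh18a1, Gm26964/Akap10, Gm43660/Slc4a1ap and Gm12319/Eno3, the antisense Gm13807/Cd82 and the unprocessed pseudogene Gm29126/Ly6e. With no coding gene were the TEC Gm44369, Gm43198, Gm43460 and Gm43461, the lincRNA Gm26581, Gm11211 and Gm26825, the processed pseudogenes Gm38158, Gm6293, Gm20768 and Gm15707, the unprocessed pseudogenes Gm11212 and Gm1966, the transcribed unprocessed pseudogene Gm8995, the misc RNA Gm27747 and the protein-coding Gm49339. Loci with more than 1 member included Usp33 with 3, Gm43857, Gm42967 and Gm43859, none of them called, and such members share a locus and are not independent.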

How the data were processed

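Per the submitters' processing notes, reads of the 12 libraries were aligned with STAR 2.7.9a to GRCm38 and counted with HTSeq-count 0.6.1p1, and the deposited values are raw counts per gene made by the authors. The labels name a stranded mRNA kit, and the strand option of the counter is not given in the sources used here. The 5 summary rows, with 96.79% to 97.27% of uniquely aligned reads on no gene, were left out. Genes over 1 CPM in at least 3 libraries were kept, TMM-scaled, and fitted over all 3 groups by the edgeR 4.0.16 quasi-likelihood method in R 4.3.3, with Benjamini-Hochberg adjustment over all genes tested. Calls needed an adjusted p under 0.05 and a log2 fold change of 0.5 or more in size. limma 3.58.1 (voom, the method of the study) and DESeq2 1.42.0 were alternatives. Gene positions, biotypes and opposite-strand exons came from GENCODE M21, in which 48349 of 48709 identifiers were found, 41341 of them in the same version. On simulated data the test recovered 44 of 200 changed genes with 7 unchanged genes called (24 h, 12488 genes) and 48 of 199 with 4 (72 h, 12487 genes). Values are given for the 12 most abundant members, the most abundant of each biotype, the 5 called members of smallest adjusted p per comparison and direction, called protein-coding members, the neighbours of the level, and their coding genes. Other genes with values were chosen after the values were seen. The members and lists were chosen with earlier results of these data known. A few genes, members and sequences are not reported here.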

Additional observations from a re-analysis of the deposited data

Results flagged for a closer look

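Single libraries stood apart from their group, by Dixon's criterion, in 5 of the 94 groups of values tested, and chance gives about 1 in 20. Gm37376 was at 11382 CPM in 24 h replicate 2, above the other 24 h libraries, and Gm20531 was at 5018 CPM in the same library, below the others. Gm12868 was at 813 CPM in 72 h replicate 5, above its group. In 72 h replicate 4, Gm11212 was at 134 CPM and Gm14508 at 54.2 CPM, each above its group.

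The difference from the spleen was smaller or more negative at 72 h than at 24 h in 17 of the 46 named members, by the edgeR test of 72 h against 24 h. Some of these were named for their call in this same test, so the count is in part set by the naming. Over all 480 members 23.1% were called in it, and over all genes tested 4.49%. The difference between the times, as a log2 fold change, was -0.83 for Gm20721, -0.93 for Gm37376, -0.92 for Gm16214, -0.69 for Gm20511, -0.97 for Gm26762 and -1.32 for Gm26602. It was -0.60 for Gm15821, -1.89 for Gm20319, -1.35 for Gm28033, -1.28 for Gm26728, -1.62 for Gm12868 and -1.89 for Gm15347. It was -0.87 for Gm10642, -0.85 for Gm10135, -3.11 for Gm42722, -0.92 for Gm12867 and -1.70 for Gm43182.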

How the results depend on the processing

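None of the called fold changes of named genes that were recomputed changed sign, whereas those without a call were not recomputed, but without normalization factors the 24 h calls of the members went from 141 higher and 11 lower to 55 and 66, and other counts moved. Members called at 72 h against 24 h were 183 with the DESeq2 Wald test, 51 with a fold limit of 1 on the log2 scale, 54 without 72 h replicates 2 and 3, 48 without normalization factors and 218 with TMM from genes without opposite-strand exons. The last 2 settings were chosen after seeing the data. At 24 h 101 members passed the fold limit of 1. At 72 h against the spleen 81 members were called without a filter, 31 without 72 h replicates 2 and 3, and 32 of the members over 50 CPM in each group. Of the opposite-strand coding genes, 29 (72 h) and 28 (72 h against 24 h) were called with the Wald test, 26 between the liver times without a filter, 11 at the fold limit of 1, 7 and 7 without 72 h replicates 2 and 3, and 136 (24 h, 14 higher and 122 lower) and 71 (between the liver times, 69 higher and 2 lower) without normalization factors. Without those factors the members summed to 243376, 273067 and 246409 CPM in spleen, 24 h and 72 h. Leaving out 1 library in turn gave 85 to 164 members at 24 h, 29 to 95 at 72 h and 47 to 160 between the liver times. For the coding genes it gave 17 to 42, 10 to 27 and 6 to 23, and for the summed level 195932 to 201441, 344945 to 359071 and 224426 to 230967 CPM.

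Replicates share numbers across groups. Same-numbered libraries correlated at -0.116 to 0.13 in their deviations from group means, and differently numbered ones at -0.153 to 0.161. Whether libraries with the same number share more than the number cannot be told from these values. With the replicate block 158, 76 and 118 members and 38, 24 and 12 coding genes were called at 24 h, at 72 h and between the liver times. Depth limits what some coding genes can show: Dpep2 had 0 to 1 counts per spleen library and Ly75 0 to 2 at 24 h.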
